A study of Cannabis sativa with 6 samples.

Results

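The genes described here had counts in control leaves of *Cannabis sativa* and a count of 0 in every library of heated leaves. Of 33673 nuclear genes with a locus number, 147 met the rule: 0 counts in each of the 3 heat libraries and at least 1 count per 1000000 gene counts (CPM) in each of the 3 control libraries. The rule used the counts of both groups, so the fall itself is how these genes were chosen; it is given as a description, with no test, and nothing rests on it. The plants were of the cultivar Pink Pepper, germinated for 15 days and grown in pots for another 3 weeks. Heat plants then spent 7 days at 45 ± 2 °C and control plants 7 days at 23 ± 1 °C, both at a relative humidity of 40 ± 4%, and leaf mRNA was sequenced. Whether each library came from its own plant is not stated in the labels, so p-values reflect variation among libraries that could be technical alone.

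The amount of an mRNA in a leaf reflects how fast its gene is transcribed and how fast the transcript decays, and heat alters both in plants. Heat shock factors switch on genes for protective chaperones, while many genes for growth, photosynthesis and specialised metabolism are turned down. In plant genomes, related genes often lie side by side as tandem copies, and nearby genes can share a chromatin state. For these reasons the silent genes are described by level, RNA class and place in the gene order. The tables used here pair locus numbers with RNA classes and give no product names, so no function is assigned to any gene and the leaf identity of the tissue was not checked with marker genes. In whole leaves, fewer cells of a type and less RNA per cell cannot be told apart.

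The heat libraries held 28492832 to 30012772 gene counts and the control libraries 30766680 to 36584253. A transcript at 1 CPM would therefore give about 28.5 to 30.0 counts in a heat library. Over the 87359540 heat counts, a result of 0 allows a level of up to 0.0343 CPM (3 counts over the group; this covers counting error only). Reads assigned to genes were 84.1% ± 0.104 of listed reads in heat and 88.8% ± 0.178 in control, and reads outside annotated exons were 6.05% ± 0.108 in heat and 1.79% ± 0.0634 in control (SD, n = 3 each). The part of these differences in the results below was not tested.

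The silent genes were mostly protein-coding and mostly of low abundance in control. Of the 147, 142 (96.6%) were protein-coding and 5 were genes of long non-coding RNA (lncRNA), close to the 97.8% protein-coding among the 15067 nuclear genes of at least 1 CPM in each control library. Their mean control level had a median of 3.50 CPM, with quartiles of 1.93 and 8.08 CPM. Against the heat floor, the levels were at least 30.7-fold to at least 6792-fold lower in heat, at least 100-fold for 75 genes and at least 1000-fold for 10. Summed, the 147 genes had 0 counts in every heat library and made up 1461 ± 19.0 of 1000000 gene counts in a control library (SD, n = 3). The 12 most abundant supplied 54.5% of that sum.

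**Figure D1:**
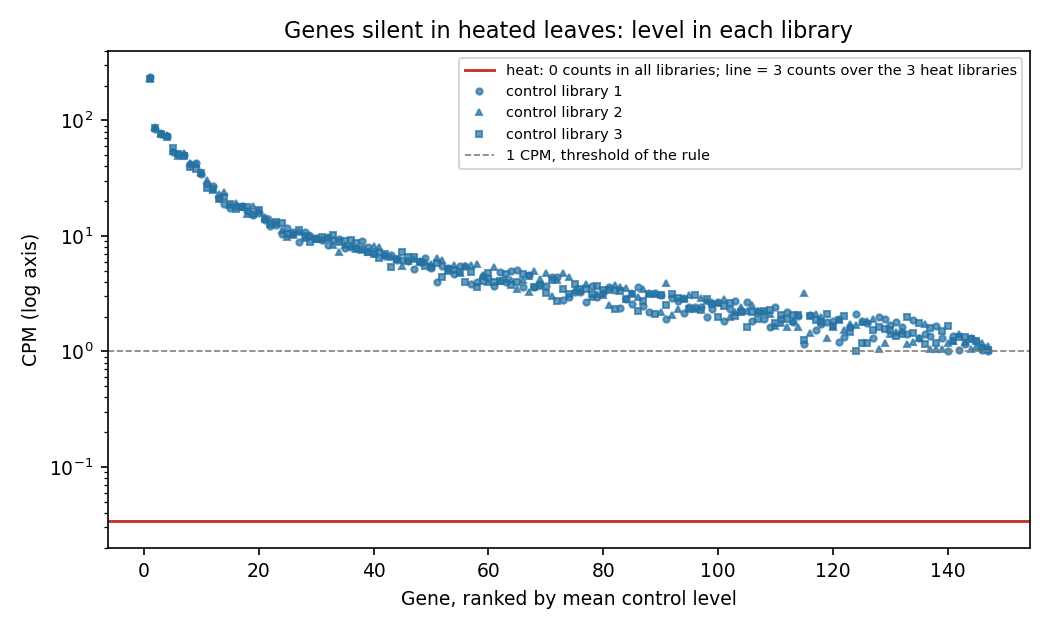
Level of each of the 147 silent genes in the control libraries (points, CPM on a log axis), ranked by mean level. The red line is the 0.0343 CPM that 0 counts over the heat libraries allow, and the dashed line is the threshold of 1 CPM; the most abundant gene stands apart at 233 CPM.

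The most abundant of them was LOC115723301, with 0 counts in each heat library and 7262, 7716 and 8421 counts in the control libraries (233 ± 2.94 CPM, SD, n = 3). It alone was 16% of the summed control level and, against the heat floor, lay at least 6792-fold lower in heat. After it came LOC115720789, at 0 counts in heat and at 83.9, 86.7 and 86.2 CPM in control, at least 2492-fold lower by the same floor. LOC115708697 was at 0 counts in heat and at 75.9, 77.2 and 75.8 CPM in control. LOC115716771 was at 0 counts in heat and at 73.9, 74.4 and 71.5 CPM in control. The levels of LOC115708697 and LOC115716771 lay closer to each other than to that of LOC115720789, and the control libraries gave like values for each gene.

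Next in level was a group of genes between 25 and 60 CPM in control, each with 0 counts in all heat libraries. LOC115721041 had 53.4, 54.2 and 58.1 CPM in control. LOC115714167 had 51.2, 48.8 and 51.6 CPM, and LOC115720594 had 49.9, 52.2 and 49.0 CPM, so the order of this pair was within their spread. LOC133031098 averaged 41.3 ± 1.62 CPM and LOC115710121 averaged 40.9 ± 2.77 CPM in control (SD, n = 3), again without a difference beyond the spread. LOC115706869 averaged 35.1 ± 0.807 CPM, LOC133032957 averaged 28.1 ± 2.17 CPM and LOC133032909 averaged 25.9 ± 1.19 CPM. The gene ranked after these stood at 21.7 CPM, and 28 of the 147 had a mean of at least 10 CPM.

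All 5 lncRNA genes were near the threshold. LOC133036483 had 0 counts in each heat library and 74, 55 and 64 counts in control, and LOC133034673 had 0 counts in heat and 59, 58 and 76 in control. LOC115718713 had 56, 59 and 43 control counts, and LOC133038062 had 58, 40 and 53. LOC133037224, the lowest of all 147 by mean level, had 31, 37 and 38 counts in control, or 1.06 ± 0.0579 CPM (SD, n = 3). LOC115718713 overlaps the protein-coding gene LOC115718712, which had 1, 2 and 0 counts in heat and 663, 804 and 894 in control. Whether counting used strand was not given in the sources used here, so reads of an overlapping pair cannot be assigned with certainty.

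Silence was more frequent among genes of low level in control. Among genes of 1 to 2 CPM in control, 38 of 708 (5.37%) had no heat count, against 54 of 1895 (2.85%) at 2 to 5 CPM and 27 of 1992 (1.36%) at 5 to 10 CPM. At 10 to 100 CPM the number was 27 of 8780 (0.308%), and above 100 CPM it was 1 of 1692 (0.0591%). Over all levels it was 147 of 15067, or 0.976%. Since both the rule and these bins use the control counts, the trend is a description of the choice.

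The coefficient of variation over the control libraries had a median of 11.1% and ran from 1.03% to 61.3%. For genes of 10 to 100 CPM in control the median was 4.59% for silent genes and 4.21% for the others, and for genes of 2 to 5 CPM it was 16.4% and 13.1%. The ratio of this spread to the spread from counting alone was 1.36 for silent genes and 1.35 for others at 10 to 100 CPM, and 1.66 and 1.35 at 2 to 5 CPM. At 1 to 2 CPM it was 1.29 for silent genes and 1.14 for others, and at 5 to 10 CPM it was 1.22 and 1.33. The ratio of silent genes was thus higher than that of others under 5 CPM and lower at 5 to 10 CPM, and these differences were not tested.

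Among the 55 silent genes of at least 5 CPM, LOC115708697 (1.03%), LOC115723301 (1.26%) and LOC115713205 (1.28%) varied least. LOC115713205 had 6.21, 6.29 and 6.37 CPM in control, a smaller spread than counting alone gives for its depth (6.89%). The most variable were LOC115711569 with 23.7%, LOC133030920 with 16.9% and LOC115721292 with 14.2%. LOC115711569 had 123 counts in the first control library against 214 and 215 in the others, so 1 low library set its spread. Of the 147 genes, 45 were highest in control library 1, 58 in library 2 and 44 in library 3. As shares these were 30.6%, 39.5% and 29.9%, beside 33.8%, 35.3% and 30.9% of the other genes of at least 1 CPM.

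No gap separated the silent genes from the rest. Of the 15067 genes, 147 had 0 counts over the heat libraries, 90 had 1 count, 48 had 2 and 43 had 3. A further 1340 had between 11 and 100 counts, and 13116 had more than 100. Just inside the rule stood LOC115695783, with 31, 39 and 61 control counts, and LOC115725552, with 65, 56 and 37, beside the lncRNA gene LOC133037224. Just outside it stood LOC133030054, with 0 counts in heat and 37, 32 and 44 in control, LOC115720979 with 48, 61 and 35 in control, and LOC115721102 with 42, 34 and 35. These missed 1 CPM in 1 control library by less than 0.05 CPM.

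**Figure D2:**
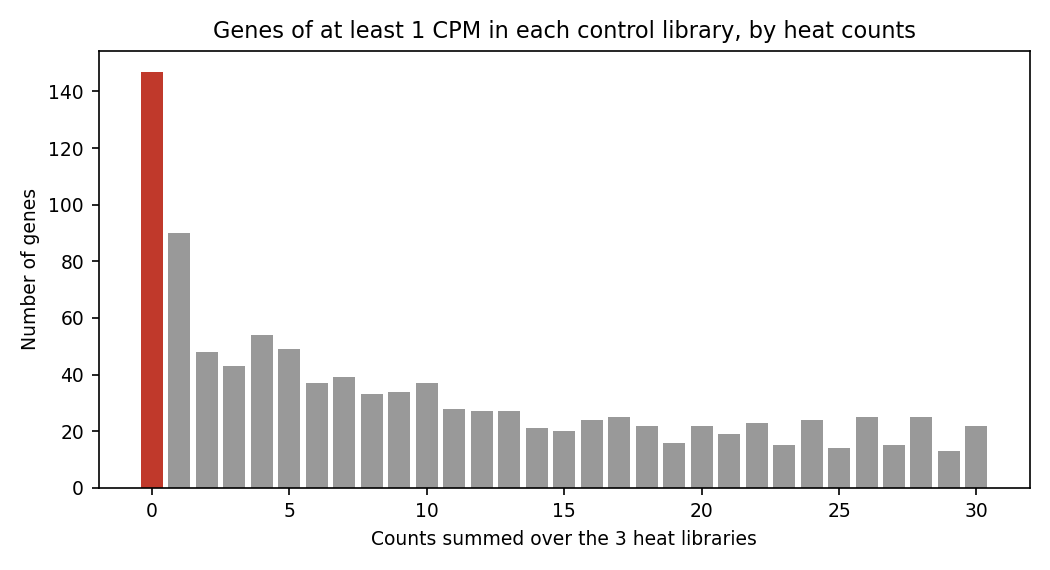
Number of nuclear genes (of at least 1 CPM in each control library) by their counts summed over the 3 heat libraries, from 0 to 30. The red bar holds the 147 silent genes; 90 genes had 1 count, and the numbers fall off without a gap.

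Several abundant control transcripts missed the rule by a single heat read. LOC115697313 had 1, 0 and 0 counts in heat and 3413, 3603 and 4026 in control, a ratio of 0.0104% of control with an exact 95% counting interval of 0.000263% to 0.0580%. LOC115712603 had 0, 1 and 0 counts in heat and 2030, 2147 and 2233 in control (0.0179%, interval 0.000454% to 0.0999%). LOC115718392 had 0, 1 and 0 in heat and 2031, 2040 and 2295 in control (0.0181%, interval 0.000457% to 0.101%). Their control levels lay within the range of the 12 most abundant silent genes.

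Among the 10188 nuclear genes of at least 10 CPM in each control library and at least 1 heat count, those with the lowest ratio of heat to control CPM, over 3 libraries of each group, were LOC115701091, LOC115719616 and LOC115697313. LOC115701091 had 1, 1 and 0 counts in heat and 13724, 15028 and 17116 in control, a ratio of 0.00501% (interval 0.000607% to 0.0181%). LOC115719616 had 9, 14 and 0 counts in heat and 81678, 84727 and 94363 in control, a mean level of 0.262 ± 0.245 CPM in heat and 2599 ± 48.5 CPM in control (SD, n = 3). Its heat reads came from libraries 1 and 2, and library 3 held none.

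All 147 silent genes passed the count filter, through the control libraries alone, and all 147 were called lower in heat by edgeR's quasi-likelihood test. Of all 17727 genes tested, 90.7% were called and 46.4% were called lower. Because the rule used the same contrast, nothing is read from the call of the silent genes. The fit serves for genes that the rule did not choose: those that lie next to a silent gene.

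Genes next to a silent gene were more often lower in heat than tested genes in general. On the chromosomes, 132 silent genes had a known place in the gene order, and 256 other genes lay directly before or after one. Of these 120 had enough counts to be tested, and 90 fell in heat and 24 rose at an adjusted p under 0.05 (edgeR). The share that fell was 75%, beside 46.4% of all tested genes, and the share that rose was 20%, beside 44.3%. Their median log2 fold change (heat over control) was -2.07, beside -0.05 for all tested genes. Of the 120, 79 fell at least 2-fold (65.8%, beside 34.1% of all tested genes) and 12 rose at least 2-fold (10%, beside 29.8%).

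The neighbours were not chosen by their values, apart from leaving out those that were themselves silent. Among the 102 neighbours of at least 1 CPM in each control library, 78 fell (76.5%). The share was 50.5% over the 14920 tested genes of that level that were not silent, these neighbours included. Without neighbours whose annotated span overlaps the silent gene, 88 of 116 fell (75.9%). Of the 136 neighbours that could not be tested, 81 had 0 counts in all 6 libraries and 21 had counts in control only. For 28 silent genes the genes on both sides were tested. Both fell for 15 of them, both rose for 2, and 1 rose and 1 fell for 7. No such count is given for pairs around other genes. Neighbouring genes share sequence and place, so they are not independent of each other, and these counts are a description without a test of the set.

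**Figure D3:**
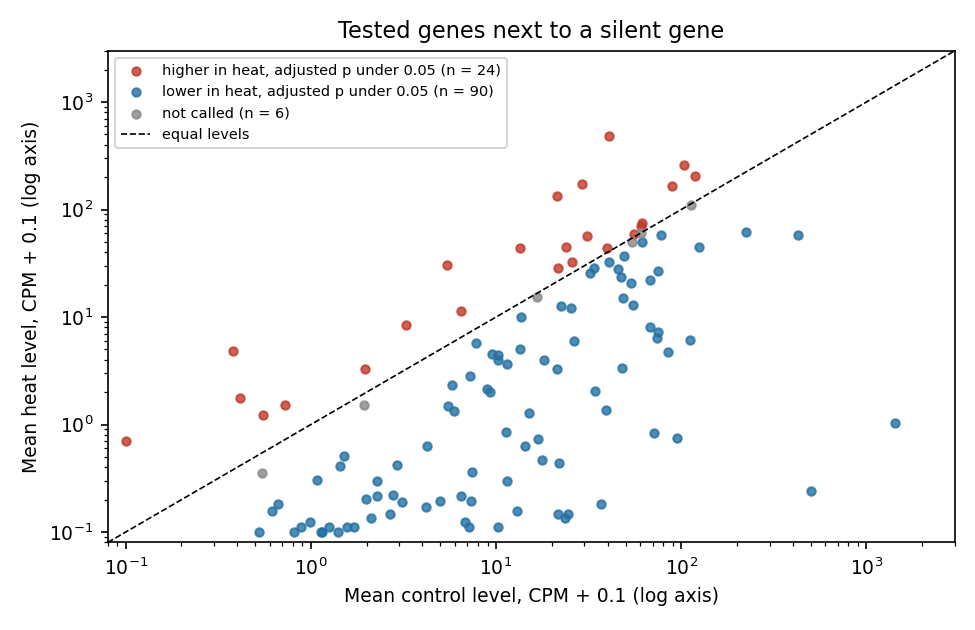
Mean level in heat (vertical) and in control (horizontal) of the 120 tested genes next to a silent gene, in CPM + 0.1 on log axes, n = 3 libraries each. Points under the dashed line are lower in heat; 90 were called lower, 24 higher and 6 neither.

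Beside the most abundant silent genes, single neighbours ranged from near silence to a rise. Of the 12 most abundant, 10 had a known place, with 20 neighbours, of which 7 had no count in any library and 10 were tested; 6 fell, 3 rose and 1 was not called. LOC115723393, next to LOC115723301, had 1, 5 and 6 counts in heat and 15359, 16648 and 18096 in control. On the log2 scale it stood at -11.72 ± 0.09 in heat over control (SE, edgeR, adjusted p = 3.84e-40). Each SE printed here and below is the size of the log2 value over the square root of the edgeR test's F value. From so few heat counts this SE is smaller than counting error alone would give. The most abundant silent gene thus lies beside a still more abundant gene that was almost silent. LOC115719756, next to LOC115720789, had 0, 1 and 0 counts in heat and 254, 238 and 210 in control.

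Smaller falls were seen beside LOC115708697 and LOC115710121. LOC115709907, next to LOC115708697, averaged 3.87 ± 0.412 CPM in heat and 10.1 ± 0.344 CPM in control (SD, n = 3). The log2 difference was -1.33 ± 0.14 (SE; edgeR, adjusted p = 2.84e-10). LOC115710112, next to LOC115710121, had 402, 329 and 321 counts in heat and 759, 837 and 940 in control (log2 difference -1.01 ± 0.08, edgeR, adjusted p = 1.28e-12). LOC133032613, next to LOC115714167, fell by 1.69 ± 0.38 on the log2 scale (edgeR, adjusted p = 0.000160), while LOC115714156 on its other side had -0.06 ± 0.05 and was not called (edgeR, adjusted p = 0.244).

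Both genes flanking LOC115716771 went the other way. LOC115716770 averaged 44.3 ± 1.48 CPM in heat and 23.7 ± 1.82 CPM in control (log2 difference 0.97 ± 0.06, SE; edgeR, adjusted p = 3.46e-15). LOC115717183 averaged 44.0 ± 1.64 CPM in heat and 13.3 ± 0.706 CPM in control (1.79 ± 0.07, edgeR, adjusted p = 2.59e-21). The silent gene between them had 2275, 2460 and 2617 counts in control, so a loss of signal in heat stood directly between a pair of gains. LOC115704735, next to LOC115706869, rose as well, from few counts: 18, 42 and 38 in heat and 6, 28 and 11 in control (1.39 ± 0.46, edgeR, adjusted p = 0.00605).

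The tilt toward lower values faded within a few genes. Counting steps over tested genes, the median log2 fold change was -2.03 at 1 step from a silent gene (254 positions), -0.86 at 2 steps, -0.44 at 3 steps and -0.30 at 5 steps. At 10 and 20 steps it was 0.00 and -0.12, within the range seen around other genes. The reverse pattern, at least 1 CPM in each heat library and 0 counts in each control library, was held by 118 nuclear genes, 0.832% of those of at least 1 CPM in each heat library. Around these the median at 1 step was 0.40 and at 2 steps 0.16. Around other genes with a log2 fold change under -5, the median at 1 step was -0.87 and at 2 steps -0.45. Among the 857 tested genes directly before or after these other genes, 437 fell (51.0%), with a median of -0.29. Directly beside genes detected only in heat, 45 of 132 tested genes fell (34.1%). The share beside silent genes was 75%. The difference between these sets was not tested, since their members were chosen by the same contrast.

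**Figure D4:**
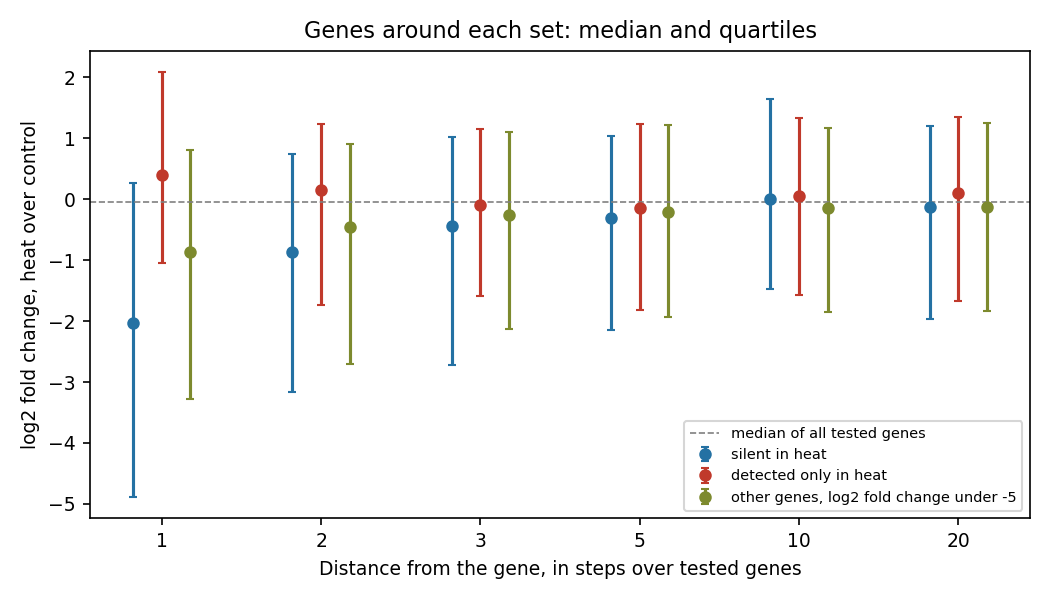
Median (point) and quartiles (bar) of the log2 fold change, heat over control, of tested genes 1 to 20 steps from a silent gene, from a gene detected only in heat, and from another gene with a log2 fold change under -5. The median around silent genes is -2.03 at 1 step and 0.00 at 10 steps; the dashed line is the median of all tested genes, -0.05.

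Some silent genes lay near each other. With at most 10 gene steps between successive members, 35 of the 132 placed genes formed 14 runs, and 3 pairs were direct neighbours. No such count is given for other sets of genes. Whether runs are more frequent among silent genes was not tested. LOC133033551 (16.3, 15.6 and 17.7 CPM in control) lies next to LOC115707366 (1.20, 1.91 and 1.86 CPM), each with 0 counts in heat. LOC133035187 (246, 269 and 337 counts in control) lies next to LOC133035182 (199, 196 and 199 counts). The lncRNA gene LOC133034673 lies next to the protein-coding LOC115720605 (5.20, 6.33 and 6.53 CPM). Levels within such a pair thus ranged from similar to unlike.

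The longest run held 6 silent genes within 36 genes, and was picked out after its values were seen. Its members are LOC115718777, LOC133034827, LOC115720594, LOC115721041, LOC133034834 and LOC133034836. LOC115720594 (50.4 ± 1.67 CPM in control) and LOC115721041 (55.2 ± 2.54 CPM) stood far above the other members, which averaged between 1.83 and 3.69 CPM. Of the 30 genes between them, 9 could be tested, and all 9 fell (edgeR), with a median log2 fold change of -7.65, or -6.89 with the gene at 0 in heat set to its bound.

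These 9 genes were close to silence too, and at such low heat counts the SE printed understates the counting error. LOC133029068 had 5, 8 and 2 counts in heat and 425, 485 and 540 in control (log2 difference -6.30 ± 0.24, SE; edgeR, adjusted p = 9.47e-22). LOC133034828, the least reduced, had 15, 10 and 2 counts in heat and 492, 482 and 537 in control (-5.53 ± 0.23, edgeR, adjusted p = 3.71e-20). LOC133029071 had 0, 1 and 0 counts in heat and 380, 323 and 446 in control. LOC115720626 had 0 counts in heat and 28, 41 and 36 in control, and missed the rule through control libraries 1 and 3. LOC133034826 had 1, 1 and 3 counts in heat and 551, 595 and 677 in control, and overlaps the silent gene LOC133034827.

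**Figure D5:**
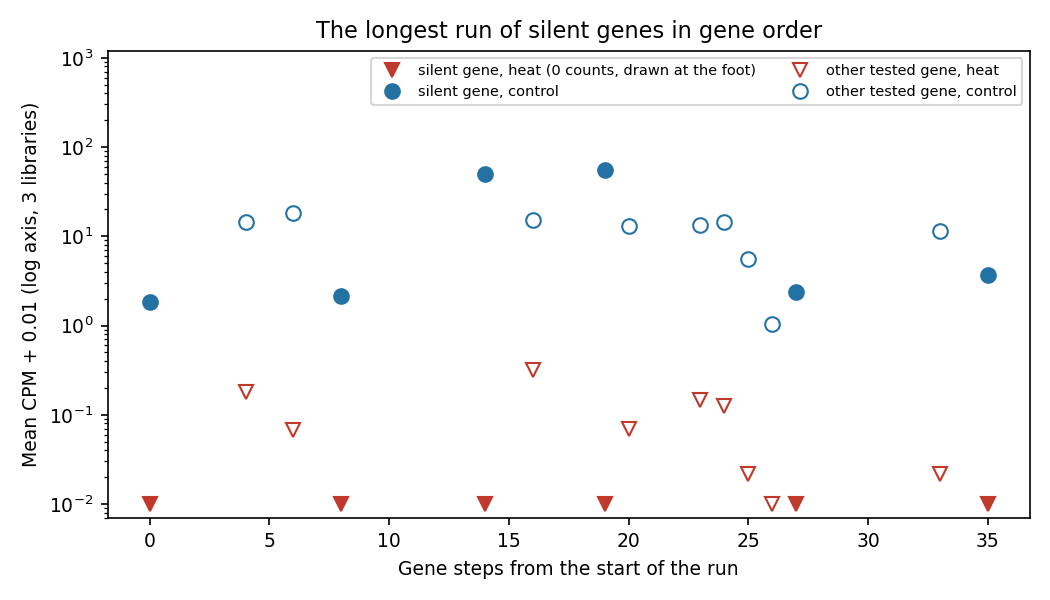
Mean level (CPM + 0.01, log axis, n = 3 libraries) of the 6 silent genes (filled) and the 9 other tested genes (open) of the longest run, by gene order, in heat (triangles) and control (circles). Every heat value lies below every control value shown; 21 further genes of the run had too few counts to be tested and are not drawn.

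The other runs differed in what lay between their members. Of the 14 runs, 10 held a tested gene between members; in 7 of them, the longest included, every such gene fell, and 3 held at least 1 that rose. In a run of 4 silent genes within 18 genes, LOC115725552, LOC115724700, LOC115725707 and LOC115695783, all members averaged under 2 CPM in control; of 7 tested genes between them 2 fell and 4 rose, with a median log2 fold change of 0.32. In a run of 3 within 9 genes, LOC115713148 (4.41 ± 0.274 CPM in control), LOC115713185 (16.3 ± 1.57 CPM) and LOC115713205 (6.29 ± 0.0805 CPM), both tested genes between the members fell. The 3 tested genes between LOC115719172 and LOC133034905 fell too, with a median log2 fold change of -5.77, as did both between LOC115724982 and LOC115724987 (-7.46). Only 1 tested gene lay between LOC115703170 and LOC133035371, between LOC115716543 and LOC115716911, and between LOC115721125 and LOC133035029, and it fell in each. Of the 3 tested genes between LOC115719017 and LOC115707809, 2 rose and 0 fell (median log2 fold change 1.20). Between LOC115710099 and LOC115710121, 1 fell and 1 rose (median 3.14, or 1.67 with the gene at 0 in control set to its bound). Of all tested genes 46.4% were called lower, and no count is given for stretches between other genes. Whether genes of a run are copies of one another was not tested, since no sequence was used here.

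A place on a chromosome was missing for 15 silent genes (10.2%), among them LOC133032957 and LOC133032909, beside 331 of the 15067 genes of at least 1 CPM in control (2.2%). Of the 132 placed genes, 12 overlapped another annotated gene, and their reads could have been counted as ambiguous or for the partner. LOC115714339, at 0 counts in heat, overlaps LOC115714338, which kept 688, 530 and 689 counts in heat, against 2076, 2281 and 2441 in control. LOC115697564 overlaps LOC115697561, which had 150, 113 and 151 counts in heat and 5, 16 and 7 in control. LOC115718623 overlaps several protein-coding genes with counts in every library, some higher and some lower in heat. Among them, LOC115719407 had 7760, 7697 and 7382 counts in heat and 3195, 3636 and 3629 in control. LOC115721084 had 415, 401 and 431 in heat and 739, 749 and 980 in control. Reads ambiguous between genes were 1.75% ± 0.0187 of listed reads in heat and 2.73% ± 0.00877 in control (SD, n = 3 each), and their part in these zeros was not tested.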

How the data were processed

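Leaf mRNA of 3 heat and 3 control libraries was analysed. The authors deposited raw counts per gene in the HTSeq layout. The submitters' processing notes name Trimmomatic 0.39, HISAT2 2.2.1, HTSeq 2.0.5 and DESeq2; per the labels' protocols, libraries came from a TruSeq mRNA kit. Build, annotation and strand setting are not given in the sources used here. The 5 closing rows, which name no gene, held 15.9% of listed reads in heat and 11.2% in control and were left out. The authors' normalized tables were not used.

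CPM is a count times 1000000 over the library's gene counts. Gene order and RNA classes came from RefSeq's table of ASM2916894v1, which matched all 147 genes. Unplaced sequences were left out of the order. Genes without a count row were left out too, except tRNA genes, which kept their place. Of the 256 neighbours, 2 were such tRNA genes. Its assembly is not named in the labels, so no coordinate is given. Heat was compared with control by edgeR 4.0.16 under R 4.3.3 (filterByExpr, TMM, robust glmQLFit and glmQLFTest, two-sided, Benjamini-Hochberg over 17727 genes, threshold 0.05), on all 6 libraries without a covariate. The script was tested on simulated data in which few genes changed and none was silenced by design. That test does not cover genes at 0 counts in a group.

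Members, lists and tests were chosen with earlier results of these data known. The genes named were the 12 most abundant, the adjacent pairs, the lncRNA genes, those at the edges of the rule, the extremes of control spread, the 3 genes most alike, and the neighbours of the 12. Runs, the distance profile and further neighbours were added after the values were seen. Alternatives were RLE scaling, DESeq2 1.42.0, no filter, other thresholds, a replicate block and leaving out each library. Comparisons by product name, protein match and promoter motif were planned and not made, since no such table was used here.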

Additional observations from a re-analysis of the deposited data

Results flagged for a closer look

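Rows of the count files that name no gene take no part in the comparisons above. For 3 of them, each heat library lay above each control library. Reads outside annotated exons averaged 6.05% of listed reads in heat and 1.79% in control. Reads that did not align averaged 3.09% in heat and 2.43% in control. Reads aligned to several places averaged 5.07% in heat and 4.22% in control. Their part in the zeros of the silent genes was not tested.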

How the results depend on the processing

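The number of silent genes, 147, depended on the thresholds. With at most 1 count allowed in each heat library it was 276, and with at most 3 counts 417. It was 197 with a control threshold of 0.5 CPM, 99 with 2 CPM, 164 with a mean of 1 CPM, 144 with TMM or DESeq2 scaling, and 135 without genes that overlap another. Leaving out 1 library gave 151 to 207 genes. Each of these sets holds all 147 by construction, since leaving out a library only drops a condition of the rule. Of the neighbours, 226 fell and 113 rose with 3 genes taken on either side, and 169 fell and 65 rose with the next tested gene; both windows hold more genes. As shares of those tested, 61.4% and 68.7% fell, beside 46.4% of all genes. With no filter 106 fell (61.3%, beside 38.1% of all genes), and with DESeq2 99 fell (65.6% of those with an adjusted p, beside 40.5%). Under the other alternatives 88 to 94 neighbours fell, 73.4% to 75.9% of those tested. The summed control level was 1228 per 1000000 without LOC115723301. With the replicate number as a block, 90 neighbours fell and 24 rose, and over all genes 8113 fell and 7758 rose, against 8218 and 7857 without it. Deviations of libraries with the same number correlated at -0.00 to 0.03, and those with different numbers at -0.02 to 0.02. Whether the numbers pair the samples is not stated in the labels and cannot be told from these values. Under TMM scaling the control levels of 28 named genes differed by -2.29% to -2.04%, more than the spread between replicates for 5 of them. Paralogs were not run, since no protein table was used here. Depth limits the zeros to 0.0343 CPM.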

Other observations

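Locus numbers that start with LOC133 were held by 32 of the 147 silent genes (21.8%), beside 8.40% of the 15067 nuclear genes of at least 1 CPM in each control library. Of the 118 nuclear genes detected only in heat, 31 held such a number (26.3%). None of these 118 is among the 15067. No such share is given for genes of at least 1 CPM in each heat library, or for genes of like low level. The 118 genes detected only in heat had a median level of 3.90 CPM in heat, and 17 of these 118 were lncRNA genes, beside 5 of the 147 silent ones. No lncRNA share is given for genes of at least 1 CPM in each heat library, so these counts have no common background. The 118 genes were 0.832% of the 14180 nuclear genes of at least 1 CPM in each heat library. These shares are descriptions of sets chosen by their counts and were not tested.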
